A study of Mus musculus with 7 samples.

Results

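The stromal tissue of the ovary was examined for 10 genes whose transcripts are made in oocytes, namely *Zp1*, *Zp2*, *Zp3*, *Gdf9*, *Bmp15*, *Oosp1*, *Nlrp5*, *Ooep*, *Figla* and *Nobox*. They were taken by name from a list of oocyte-specific genes, chosen with earlier results of these data known. All 10 were found among the 52230 genes measured and passed the filter on low counts that left 19233 genes for testing. The libraries came from the PRKO line, in which the allele Pgrtm1Bwo disrupts *Pgr*, the progesterone receptor gene, in the whole animal. There were 4 wildtype libraries (WT, PGR +/+, replicates 1 to 4) and 3 null libraries (KO, PGR -/-, replicates 2 to 4), each made from tissue pooled from 3 mice, so that variation between single animals was averaged within a library. All mice were 21 to 27 days old at treatment, received 5 IU of eCG (PMSG) and, 44 h later, 5 IU of hCG, and gave their ovaries 8 h after hCG. Follicles were punctured many times to release granulosa cells and the rest of the ovary was sequenced, so follicles that stayed intact would be part of the sample. The labels record no follicle count or stage for any pool.

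The oocyte grows inside the follicle over a long period and stores transcripts that are used during growth, meiotic maturation and the first divisions of the embryo. During growth it secretes a glycoprotein coat, the zona pellucida, and releases growth factors that act on the surrounding granulosa cells. A network of oocyte transcription factors is needed for the formation of the first follicles and for expression of the growth-phase genes, and a complex of maternal proteins assembles below the plasma membrane and is required by the early embryo. In bulk tissue a difference in an oocyte transcript can come from more or fewer oocytes or from more or less RNA per oocyte. Levels are relative to the library total, so it can also come from more or less RNA of the other cells. These cannot be told apart here.

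The reads assigned to transcripts summed to between 47.4 M (KO replicate 3) and 63.4 M (WT replicate 4) per library. *Pgr* checked the labels, at 4.22 to 8.04 TPM in WT and 1.54 to 2.19 TPM in KO, with no overlap (log2 fold change −1.72, edgeR adjusted p = 0.0544). KO replicate 3 stood apart in its sum of 3 red blood cell genes, 1411 TPM against 747 to 965 TPM elsewhere. It also had the lowest sum of 4 endothelial genes, 207 TPM against 209.8 to 249 TPM, and of 4 surface epithelium genes, 16.2 TPM against 19.6 to 39.1 TPM. TPM is a level scaled by transcript length and by the library total, and is used wherever genes are compared with each other. CPM is the read count scaled by library size with the TMM method, not by length. The tissue held genes listed as theca markers at a summed 7080 to 10730 TPM, mostly from *Cyp11a1*, *Hsd3b1* and *Star*. *Cyp17a1* was at 390 to 1082 TPM and *Insl3* at 70.25 to 155 TPM. Stromal fibroblast markers summed to 1710 to 2446 TPM, and 2 oviduct markers to 1.88 to 3.28 TPM. Granulosa cell markers also remained, with *Inha* at 1669 to 2721 TPM and *Amh*, a product of growing follicles, at 54.0 to 117 TPM.

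The bases before the start sites are shown for 1 or 2 of the listed genes of each role, those whose RefSeq start lay within 6 bases of the main annotated transcript. RefSeq promoter windows on GRCm38.p6 were matched for 7 of the 10 genes, in 8 windows. In the runs below, which read 5′ to 3′ along the gene's strand, capitals mark the E-box CANNTG and the TATA box TATAAA on either strand (TTTATA when read from the other strand). The E-box is the letter pattern recognised by basic helix-loop-helix factors such as FIGLA. The windows are chr5:135979855-135980104 on the plus strand for *Zp3*, chrX:6320725-6320974 on the minus strand for *Bmp15*, chr7:23385639-23385888 on the plus strand for *Nlrp5*, chr6:86016941-86017190 on the plus strand for *Figla* and chr6:43309555-43309804 on the minus strand for *Nobox*.
Zp3: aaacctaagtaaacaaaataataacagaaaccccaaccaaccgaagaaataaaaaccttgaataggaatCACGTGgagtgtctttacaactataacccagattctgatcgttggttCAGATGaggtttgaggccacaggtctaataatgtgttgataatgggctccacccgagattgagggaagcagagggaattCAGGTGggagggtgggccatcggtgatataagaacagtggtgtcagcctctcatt
Bmp15: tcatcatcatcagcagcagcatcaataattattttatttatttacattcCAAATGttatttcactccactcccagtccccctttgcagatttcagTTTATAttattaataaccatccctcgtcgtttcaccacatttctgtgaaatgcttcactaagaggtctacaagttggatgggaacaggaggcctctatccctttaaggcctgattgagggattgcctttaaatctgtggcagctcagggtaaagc
Nlrp5: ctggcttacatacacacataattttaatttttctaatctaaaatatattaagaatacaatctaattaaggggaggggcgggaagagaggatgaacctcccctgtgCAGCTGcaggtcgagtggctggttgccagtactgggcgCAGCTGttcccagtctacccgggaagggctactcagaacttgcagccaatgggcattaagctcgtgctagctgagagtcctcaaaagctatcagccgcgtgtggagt
Figla: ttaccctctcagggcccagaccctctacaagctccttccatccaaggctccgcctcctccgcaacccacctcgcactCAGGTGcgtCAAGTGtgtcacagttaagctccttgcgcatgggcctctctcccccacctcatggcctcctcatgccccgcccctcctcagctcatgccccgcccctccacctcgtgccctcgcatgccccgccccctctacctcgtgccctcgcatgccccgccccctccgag
Nobox: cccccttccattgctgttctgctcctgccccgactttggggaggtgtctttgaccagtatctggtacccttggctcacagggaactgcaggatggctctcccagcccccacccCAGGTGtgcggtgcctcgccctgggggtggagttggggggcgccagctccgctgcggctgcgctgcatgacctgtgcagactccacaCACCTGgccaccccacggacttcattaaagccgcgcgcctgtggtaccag

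The run before *Zp3* held 3 E-boxes, those before *Nlrp5*, *Figla* and *Nobox* held 2 each, and that before *Bmp15* held 1 with a TATA box in the reverse letters. CANNTG reads as CANNTG on both strands and occurred in all 8 matched windows, beside 66.2% of the 32851 mouse promoter windows of the same 250 bases. The 8 windows belong to 7 genes. In the second *Nlrp5* window the RefSeq start lay 18213 bases past that of the main transcript. For *Ooep* and *Oosp1* it lay 137 and 99 bases past. The narrower E-box CACCTG, searched together with its reverse complement CAGGTG and contained in the first pattern, occurred before *Zp3*, *Figla*, *Nobox* and *Oosp1*, and in 17.2% of all windows. TATAAA occurred in 12.4% of all windows. The homeobox core TAATTG, searched with CAATTA, occurred before *Ooep* alone among the matched genes and in 7.17% of all windows. These are matches of letters and no binding was measured.

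All 10 oocyte genes were detected in every library, and the mean was higher in KO than in WT for all 10, but no gene passed the thresholds for differential expression (a log2 fold change of 0.5 or more in size, with an adjusted p no higher than 0.05). At these thresholds edgeR called 2 of all 19233 genes, 0.0104%, and DESeq2 called 144, 0.749%, with 0 of the 10 in either. The log2 fold changes, which give KO relative to WT, ranged from 0.23 (*Ooep*) to 0.44 (*Figla*) with a median of 0.29. Across all genes tested, 49.7% had a log2 fold change above 0 and the median absolute log2 fold change was 0.097. The 10 genes varied together between libraries, so their signs and p-values are not 10 independent observations. An unadjusted p under 0.05 was found for 5 of the 10, *Zp2*, *Oosp1*, *Nlrp5*, *Figla* and *Nobox*, and for 8.94% of all genes, or 3.84% when genes higher in KO alone are counted. DESeq2 gave such a p for 4 of the 10 and for 8.71% of all genes. The count of 5 depended on single libraries. Without KO replicate 3 it was 1, where 6.62% of all genes had such a p, and without KO replicate 4 it was 9, where 12.4% did. It was 2 without WT replicate 1 (8.82% of all genes), and 3 without WT replicate 2 (8.41%), WT replicate 4 (9.3%) or KO replicate 2 (5.98%). Without WT replicate 3 it was 7 (7.65%).

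**Figure D1:**
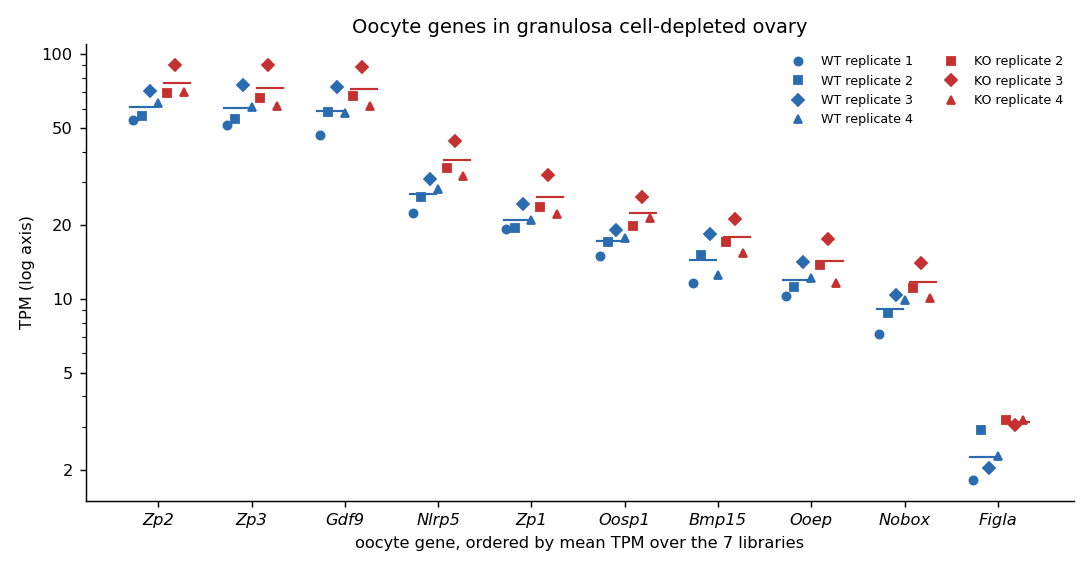
The vertical axis gives TPM on a log scale for each of the 10 oocyte genes in each of the 4 WT (blue) and 3 KO (red) libraries, with horizontal lines at the group means. In 9 of the 10 genes the highest point is KO replicate 3, and the ranges of WT and KO overlap for all genes but *Oosp1*, *Nlrp5* and *Figla*. In CPM, which is not drawn, the groups stay apart for *Oosp1* and *Figla* alone, with KO above WT as in 3.93% of all genes. The share of all genes on the TPM scale was not computed.

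*Zp2* and *Zp3* had the highest mean levels of the 10, and *Zp1* lay below *Gdf9* and *Nlrp5* in 7 of 7 libraries. *Zp2* encodes the zona protein that sperm bind, and its locus spans 119725995 to 119744514 of chromosome 7 (all loci are given on GRCm39). Levels were 54.0, 55.8, 70.5 and 63.2 TPM in WT replicates 1 to 4 and 69.4, 90.6 and 69.9 TPM in KO replicates 2 to 4. WT replicate 3 lay above KO replicates 2 and 4, and KO replicate 3 lay above all others. The mean was 60.9 ± 7.57 TPM (SD, n = 4) in WT and 76.6 ± 12.1 TPM (SD, n = 3) in KO. The log2 fold change was 0.29 ± 0.12 (SE) and did not pass after adjustment over all genes (edgeR adjusted p = 0.519).

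*Zp3*, which encodes a zona subunit that pairs with ZP2 in the filaments, lies on chromosome 5 from 136008953 to 136017478 and has 8 exons in its main transcript. It was expressed at 51.2, 54.5, 74.65 and 61.05 TPM in the WT libraries and at 66.0, 90.15 and 61.4 TPM in the KO libraries. The groups overlapped, since WT replicate 3 exceeded 2 of the 3 KO libraries. The means were 60.4 ± 10.4 TPM (SD, n = 4) and 72.5 ± 15.5 TPM (SD, n = 3), and the log2 fold change of 0.23 ± 0.16 (SE) was the second smallest of the 10 (edgeR adjusted p = 0.721). Without KO replicate 3 it was 0.03.

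*Zp1*, on chromosome 19 from 10891651 to 10897996, encodes the protein that cross-links zona filaments and was the least expressed of the trio. Its values were 19.4, 19.5, 24.4 and 21.1 TPM in WT and 23.7, 32.1 and 22.3 TPM in KO, again with WT replicate 3 above KO replicates 2 and 4. The log2 fold change was 0.28 ± 0.14 (SE, with an edgeR adjusted p of 0.583). The 3 genes kept nearly fixed proportions. The ratio of *Zp2* to *Zp3* lay between 0.945 and 1.14 in all 7 libraries, and that of *Zp1* to *Zp3* between 0.327 and 0.378, while the level of each gene varied 1.66- to 1.76-fold between its lowest and its highest library.

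Among the secreted factors, *Gdf9*, the TGF-beta family ligand by which the oocyte acts on granulosa and cumulus cells, was the most abundant. It lies on chromosome 11 from 53321850 to 53328731 and overlaps exons of *Uqcrq* on the opposite strand, but the library kit kept strand. Its levels were 46.8, 57.9, 73.45 and 57.4 TPM in WT and 67.25, 88.5 and 61.5 TPM in KO. WT replicate 3 exceeded KO replicates 2 and 4, so the groups overlapped. The means of 58.9 ± 10.98 TPM (SD, n = 4) and 72.4 ± 14.2 TPM (SD, n = 3) differed by a log2 fold change of 0.28 ± 0.15 (SE, with an edgeR adjusted p of 0.638).

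*Bmp15*, an X-linked ligand of the same family and a partner of GDF9, lies on chromosome X from 6226161 to 6232775. It was expressed at 11.7, 15.1, 18.35 and 12.55 TPM in WT and at 17.1, 21.3 and 15.4 TPM in KO. WT replicate 3 was again above KO replicates 2 and 4. The log2 fold change was 0.28 ± 0.16 (SE, with an edgeR adjusted p of 0.649). *Gdf9* exceeded *Bmp15* in every library by 3.83- to 4.58-fold, with a mean ratio of 4.10 ± 0.326 for WT (SD, n = 4) and of 4.03 ± 0.118 for KO (SD, n = 3).

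*Oosp1*, which encodes an oocyte-secreted protein, lies on chromosome 19 from 11644824 to 11668514. It was at 15.0, 17.15, 19.1 and 17.7 TPM in WT and 19.9, 26.1 and 21.35 TPM in KO. Every KO library lay above every WT library, both in TPM and in CPM. By CPM this was found for 2 of the 10 genes, *Oosp1* and *Figla*, and for 3.93% of all genes in the same direction (9.05% in either). The log2 fold change was 0.36 ± 0.12 (SE, with an edgeR adjusted p of 0.418). The exact permutation p on log2 CPM (two-sided) was 0.0286 for *Oosp1*, the smallest value that 4 against 3 libraries can give, and 0.0571 to 0.371 for the other 9 genes.

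*Nlrp5* and *Ooep* encode proteins of the subcortical maternal complex, an assembly under the egg membrane that the early embryo needs. *Nlrp5*, also known as *Mater*, lies on chromosome 7 from 23085314 to 23141347 with 16 exons in the main transcript. Its levels were 22.4, 26.1, 30.99 and 28.1 TPM in WT and 34.3, 44.3 and 31.9 TPM in KO. The KO libraries lay above the WT libraries in TPM, by as little as KO replicate 4 over WT replicate 3, but in CPM the groups overlapped. Its means of 26.9 ± 3.62 TPM (SD, n = 4) and 36.8 ± 6.57 TPM (SD, n = 3) gave a log2 fold change of 0.42 ± 0.13 (SE), with the lowest unadjusted p of the 10 (0.0107 in edgeR). The adjusted p was 0.381 in edgeR and 0.116 in DESeq2. Without KO replicate 3 the log2 fold change was 0.25 (adjusted p = 0.737 in edgeR).

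*Ooep* lies on chromosome 9 from 78283366 to 78286030. It was expressed at 10.3, 11.2, 14.2 and 12.15 TPM in WT and at 13.8, 17.6 and 11.6 TPM in KO. KO replicates 2 and 4 fell within the WT range. The log2 fold change was 0.23 ± 0.16 (SE, with an edgeR adjusted p of 0.720), and 0.04 without KO replicate 3. The ratio of *Nlrp5* to *Ooep* was 2.18 to 2.33 in WT and 2.48 to 2.75 in KO, so the groups did not overlap in this ratio, which was picked after the values were seen and is given without a test.

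*Figla*, which encodes a helix-loop-helix factor required for the first follicles and for zona gene expression, was the lowest of the 10. It lies on chromosome 6 from 85993153 to 85997978. It was at 1.82, 2.91, 2.04 and 2.27 TPM in WT and 3.21, 3.05 and 3.19 TPM in KO, from 40 to 72 reads per library. All KO libraries lay above all WT libraries, and it was the only one of the 10 whose highest value was not in KO replicate 3. The means were 2.26 ± 0.470 TPM (SD, n = 4) and 3.15 ± 0.0881 TPM (SD, n = 3), a log2 fold change of 0.44 ± 0.18 (SE, with an edgeR adjusted p of 0.514).

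*Nobox*, a homeobox factor needed for the growth of early follicles, lies on chromosome 6 from 43280608 to 43286488. It was at 7.18, 8.74, 10.4 and 9.94 TPM in WT and 11.05, 14.0 and 10.1 TPM in KO. WT replicate 3 lay above KO replicate 4, and the other KO libraries lay above all WT libraries. The log2 fold change was 0.34 ± 0.14 (SE, with an edgeR adjusted p of 0.529).

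The order of the levels was nearly the same in every library. By mean TPM over the 7 libraries it ran from *Zp2* (67.6), *Zp3* (65.6) and *Gdf9* (64.7) to *Nlrp5* (31.1), *Zp1* (23.2), *Oosp1* (19.5), *Bmp15* (15.9), *Ooep* (13.0), *Nobox* (10.2) and *Figla* (2.64). The first 3 did not separate beyond their spread, with *Zp2* above *Zp3* in 6 of 7 libraries and *Zp3* above *Gdf9* in 4 of 7. Each of the other neighbours kept its order in 7 of 7 libraries. *Zp2* made up 20.75% to 22.65% of the summed TPM of the 10 genes, and *Figla* 0.602% to 1.08%.

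Summed over the 10 genes, the level was 240, 269, 338 and 286 TPM in WT replicates 1 to 4 and 326, 428 and 308 TPM in KO replicates 2 to 4. WT replicate 3 lay above KO replicates 2 and 4, so the groups overlapped. Replicate 3 had the highest sum in both groups, and KO lay above WT within each of replicates 2, 3 and 4. Whether same-numbered libraries were paired is not known. The mean sum was 283 ± 41.3 TPM (SD, n = 4) in WT and 354 ± 64.4 TPM (SD, n = 3) in KO, a ratio of 1.25, and the ratio was 1.12 without KO replicate 3. The 10 genes took 0.0299% to 0.0524% of all reads. KO replicate 3 was the highest library for 9 of the 10 genes on both scales, and for 16.7% of all genes tested in TPM and 15.3% in CPM. In WT replicate 1 the level was the lowest of the 7 for all 10 genes in TPM, but this library was the lowest for 38.3% of all genes on that scale, and in CPM it was the lowest for 4 of the 10.

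Most of the variation of the 10 genes between libraries was common to them. A fit with 1 value per gene and 1 per library on log2(TPM + 0.1) put 84.1% of the variation between libraries into the library values, and 70.9% to 89.1% when each library was left out in turn. The same share was 42.8% for 11 granulosa cell markers, 49.5% for 5 cumulus matrix genes and 26.9% for 5 theca genes. For 7 fibroblast genes it was 55.0%, for 4 leukocyte genes 60.55% and for 2 oviduct genes 51.0%. It was close to that of the oocyte genes for 4 endothelial genes (82.1%) and 4 surface epithelium genes (82.5%), within a few percentage points, and higher for 3 red blood cell genes (94.6%). Lists differ in length and level, and genes that vary independently give larger shares in shorter lists. All shares were taken on TPM and not on CPM, and in TPM WT replicate 1 was the lowest library for 38.3% of all genes. Without that library the share of the 10 genes was 77.1%.

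**Figure D2:**
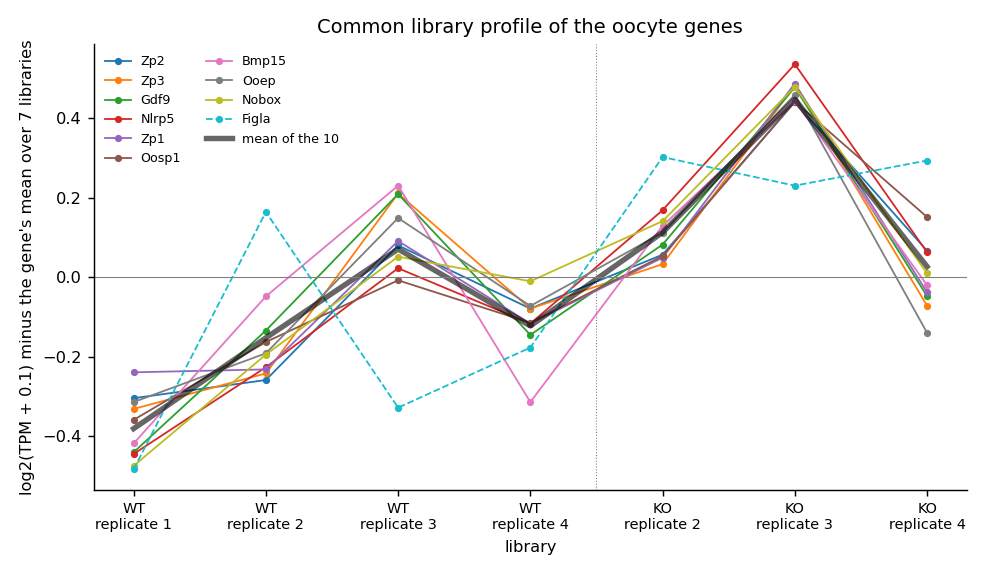
The vertical axis gives log2(TPM + 0.1) of each oocyte gene minus its mean over the 7 libraries, and the horizontal axis the libraries, whose points are joined only to show which belong to 1 gene. The thick line is the mean of the 10 genes, from −0.38 in WT replicate 1 to 0.45 in KO replicate 3, and *Figla* (dashed) departs most from it.

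After the mean of the other 9 genes was taken out, the spread of a gene over the 7 libraries shrank from an SD of 0.25 to 0.31 on the log2 scale to 0.07 to 0.13, for every gene but *Figla*. For *Oosp1* and *Nobox* the remaining SD of 0.073 and 0.072 was close to the 0.066 and 0.059 that read counting alone gives. *Zp2*, *Gdf9* and *Nlrp5*, with at least 2833 reads in each library, kept an SD of 0.070 to 0.080, where counting gives 0.021 to 0.024. *Bmp15* kept 0.126, the most among the well-counted genes, with WT replicate 3 above and WT replicate 4 below the other genes. In *Figla* the SD went only from 0.32 to 0.30, and counting gives 0.20 at its depth.

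**Figure D3:**
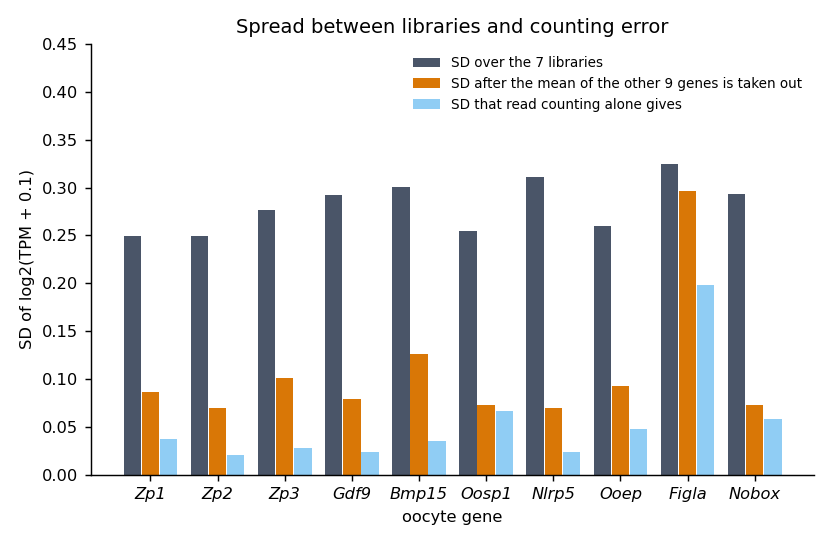
Bars start at 0 and give, for each oocyte gene, the SD of log2(TPM + 0.1) over the 7 libraries, the SD after the mean of the other 9 genes was subtracted, and the SD that counting of reads alone gives. The middle bar is 0.13 or lower for 9 genes and 0.30 for *Figla*.

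Salmon assigned nearly all reads of most of the 10 genes to 1 annotated transcript. The main transcript took at least 97.47% of the reads in *Zp1*, *Zp2* and *Gdf9*, and 100% in *Zp3*, *Bmp15*, *Ooep* and *Figla*. In *Oosp1* it took 84.3% to 90.9%, with 6.59% to 14.7% on a transcript annotated for nonsense-mediated decay. In *Nlrp5* the main form took 81.8% to 91.3% and a second coding form 7.84% to 17.2%, the latter highest in KO replicate 3 (813 of 4728 reads). *Nobox* had 92.0% to 100% on its main transcript.

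Near-identical sequence was a concern mainly for *Nlrp5*. Of the 31-base words of its main transcript, 20.3% also occur at other loci, the pseudogenes *Nlrp5-ps*, *Gm18757* and *Gm45925* among them, against 4.08% with other genes for *Ooep*, 0.320% for *Zp2* and 0 for the other 7 genes. The 4 entries of these 3 names received 56 to 127 reads, which is 1.47% to 4.48% of the *Nlrp5* reads, and the split of shared reads that Salmon made could not be checked.

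The other oocyte genes were described with a wider list of 49 genes in 7 roles, which includes the 10. All 49 passed the filter on low counts, 48 had a log2 fold change above 0, and 13 had an unadjusted p under 0.05, all of them higher in KO. Of all genes tested, 49.7% had a log2 fold change above 0. Such a p was found for 8.94% of all genes, or 3.84% when genes higher in KO alone are counted. The genes outside the 10 also varied together, with 73.2% of their variation in the library values. The counts are therefore not of independent genes. None of the 49 was called by edgeR, and DESeq2 called 1, *Sohlh1*. Among the 39 genes beyond the 10, 38 were higher in KO by the sign of the fold change, with a median of 0.30, and 8 had an unadjusted p under 0.05. In 3 of them, *Sohlh1*, *Dppa3* and *Oosp2*, the KO libraries all lay above the WT libraries in CPM, against 3.93% of all genes. The count of 13 was 2 without KO replicate 3, where 6.62% of all genes had such a p, and 36 without KO replicate 4, where 12.4% did. It was 27, 8 and 6 without WT replicates 3, 1 and 2, where 7.65%, 8.82% and 8.41% of all genes did. Without KO replicate 3 the median over the 39 was 0.14 with an unadjusted p under 0.05 for 1 gene, and the median over the 10 genes was 0.13. KO replicate 3 was the highest library for 46 of the 49.

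**Figure D4:**
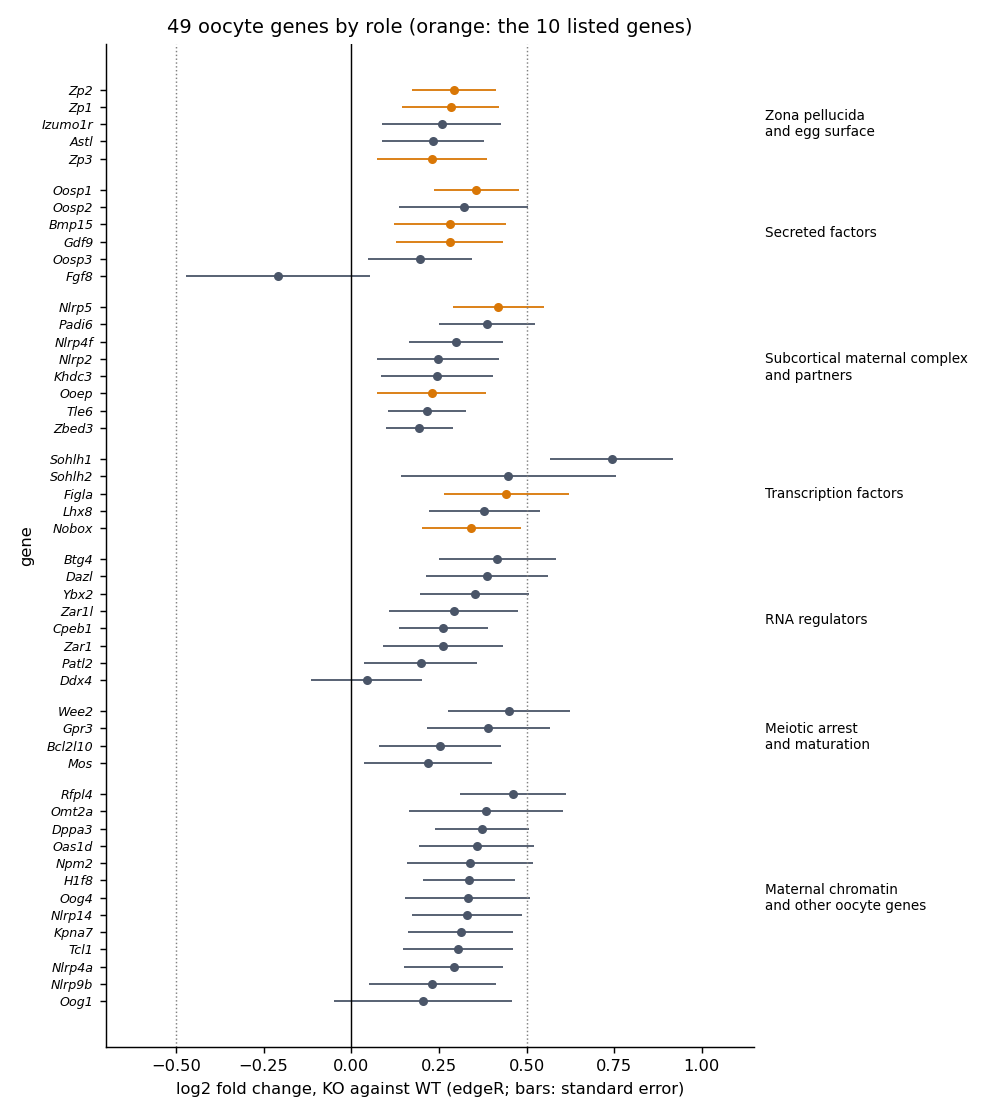
Points give the log2 fold change (KO against WT) of 49 oocyte genes in edgeR, grouped by role, with bars of 1 standard error and the 10 listed genes in orange. All points but that of *Fgf8* lie to the right of 0, and *Sohlh1* alone lies beyond the dotted line at 0.5.

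The transcription factors had the highest median of the 7 roles, 0.44 over 5 genes, of which 4 had an unadjusted p under 0.05. *Sohlh1*, a helix-loop-helix factor of the oocytes of early follicles, had the lowest p of the wider list. It was at 2.40, 2.38, 2.75 and 2.90 TPM in WT and 4.88, 5.03 and 3.49 TPM in KO, with no overlap. Its log2 fold change was 0.74 ± 0.18 (SE, with an edgeR adjusted p of 0.264), and DESeq2 gave an adjusted p of 0.0214. The role's lowest gene, *Sohlh2*, a partner of SOHLH1, was at 0.144 to 0.384 TPM, from as few as 12 reads.

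The subcortical maternal complex and its partners were all higher in KO by sign, 8 of 8, with a median of 0.25 and an unadjusted p under 0.05 for 2 of them. Their highest gene, *Zbed3*, was at 85.8 ± 11.2 TPM (SD, n = 4) in WT and 101 ± 8.10 TPM (SD, n = 3) in KO, above every one of the 10 genes in mean TPM. *Padi6*, which encodes an enzyme-like protein of the oocyte cytoplasmic lattices, was at 62.9, 69.1, 92.5 and 79.6 TPM in WT and 93.6, 120.3 and 91.1 TPM in KO. WT replicate 3 lay above KO replicate 4. Its log2 fold change was 0.39 (adjusted p = 0.441 in edgeR). The lowest gene of this role was *Nlrp2*, with a mean of 2.62 TPM.

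Zona and egg surface genes had a median log2 fold change of 0.26 (5 of 5 above 0, 1 with an unadjusted p under 0.05), down to *Izumo1r*, the sperm receptor of the egg membrane, at a mean of 5.12 TPM. Secreted factors had a median of 0.28 (5 of 6 above 0, 1 with such a p). The exception was *Fgf8*, an oocyte growth factor that acts on cumulus cells, with a mean of 0.510 ± 0.111 TPM (SD, n = 4) in WT and 0.451 ± 0.0933 TPM (SD, n = 3) in KO and a log2 fold change of −0.21 at this low level.

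The RNA regulators had a median of 0.28 (8 of 8 above 0, 1 with such a p), from *Zar1*, which binds maternal mRNAs, at a mean of 22.3 TPM down to *Patl2* at 1.44 TPM. The smallest log2 fold change of this role, that of *Ddx4*, was 0.04 ± 0.16 (SE, with an edgeR adjusted p of 0.961). *Ddx4* was at 4.04 ± 0.666 TPM (SD, n = 4) in WT and 4.24 ± 0.735 TPM (SD, n = 3) in KO. Genes of meiotic arrest and maturation had a median of 0.32 (4 of 4 above 0, 1 with such a p), from *Bcl2l10*, a BCL2 family member, at 17.5 TPM down to *Gpr3*, the receptor that keeps the oocyte in meiotic arrest, at 2.55 TPM. The remaining maternal genes had a median of 0.33 (13 of 13 above 0, 3 with such a p), from *Nlrp14* at 45.5 TPM down to *Kpna7*, an importin of the egg, at 4.29 TPM. In this role *Rfpl4*, which encodes a RING finger protein of the oocyte, had the lowest p, with 7.98 ± 1.06 TPM (SD, n = 4) in WT, 11.3 ± 1.99 TPM (SD, n = 3) in KO and a log2 fold change of 0.46 (adjusted p = 0.400 in edgeR).

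Across all genes tested, those most like the 10 were sought by Pearson's r, over the 7 libraries, with the mean of the 10 genes in centred log2 CPM. The points share their libraries and depth, and no test is attached. Outside the wider list the 10 highest were *Slc30a3*, *Fbxw26*, *Pls1*, *Fbxw15*, *Tfap2e*, *Ccno*, *Khdc1b*, *Pkd2l2*, *Oas1c* and *Pdzk1*, with r from 0.990 down to 0.978. Their mean levels in WT ran from 0.591 TPM (*Pls1*) to 27.9 TPM (*Khdc1b*), and several belong to families of similar copies, whose reads may be split between genes. An r of at least 0.9 was reached by 1.01% of the 19233 genes and by 24 of the 39 other oocyte genes (61.5%), whose median r was 0.919. Among these 39, *Fgf8* (r = −0.34) and *Sohlh2* (0.27) were lowest. Each of the 10 genes is part of the mean it was compared with, and their r ranged from 0.502 (*Figla*) to 0.991 (*Nlrp5*).

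Markers of the cells around the oocyte did not follow the same order of libraries. The sum of 11 granulosa cell markers was 3022, 2404, 3107 and 2264 TPM in WT and 2787, 2880 and 3633 TPM in KO. It was highest in KO replicate 4, where the oocyte genes were near their mean. *Inha* gave most of this sum, with 2317 TPM in WT replicate 1 and 2721 TPM in KO replicate 4. *Amh* was highest in WT replicate 3 (117 TPM), with KO replicates 3 and 4 next (79.05 and 79.03 TPM). Of these 11 markers, 6 had a log2 fold change above 0, none was called by edgeR or reached an unadjusted p under 0.05, and *Amh* was at 75.8 ± 29.3 TPM (SD, n = 4) in WT and 71.1 ± 13.7 TPM (SD, n = 3) in KO. Of 5 cumulus matrix genes, 3 had a log2 fold change above 0 and 2 below, with a median of 0.20. The values were 0.66 for *Has2*, 0.59 for *Ptx3*, 0.20 for *Tnfaip6*, −0.02 for *Ptgs2* and −0.13 for *Vcan*. *Has2* and *Ptx3* had an unadjusted p under 0.05, and none was called (edgeR adjusted p from 0.377). *Has2*, the hyaluronan synthase of the expanding cumulus, was highest in KO replicate 2 (5.94 TPM), and its WT libraries lay between 2.53 and 3.02 TPM. In TPM every KO library lay above every WT library for *Has2* and for *Ptx3* (25.9 to 38.1 against 15.5 to 24.4 TPM). By CPM this held for 1 of the 5 genes, beside 3.93% of all genes. The summed cumulus matrix genes were highest in WT replicate 2 (367.5 TPM) and lowest in WT replicate 1 (253.5 TPM). *Vcan* gave most of these sums, with 235 and 132 TPM.

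**Figure D5:**
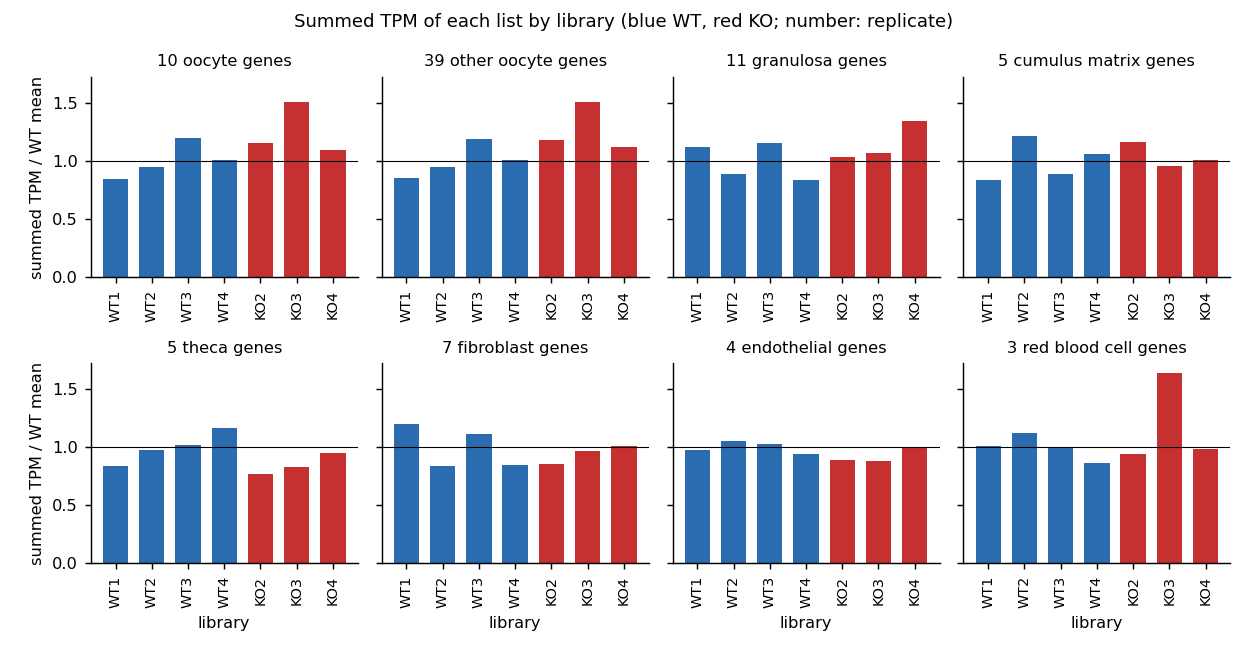
Bars start at 0 and give the summed TPM of each gene list in each library divided by the mean of the 4 WT libraries (line at 1), blue for WT and red for KO. The 10 oocyte genes and the 39 other oocyte genes share their order of libraries and peak in KO replicate 3, the granulosa genes peak in KO replicate 4 and the red blood cell genes in KO replicate 3.

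All 5 theca markers and all 4 endothelial markers had log2 fold changes below 0, with medians of −0.49 and −0.16. An unadjusted p under 0.05 was found for 1 and 2 of them, and edgeR called none. KO replicate 3, which weighed most in the higher KO means of the oocyte genes, was also the library with the fewest assigned reads and with the values given above for red blood cell, endothelial and surface epithelium genes. The 3 red blood cell genes had log2 fold changes above 0, and 6 of the 7 fibroblast genes below 0. The part of these shifts in the oocyte gene differences was not tested.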

How the data were processed

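The authors made stranded, paired-end mRNA libraries and ran Salmon on the GENCODE M26 transcriptome of GRCm39. The files they deposited hold, for each transcript, an expected count (the estimated number of read pairs, called reads here), TPM and an effective length. The authors' TPM values are scaled within a library, so they serve to compare genes, and tests used counts. Transcripts were matched by identifier to GENCODE M39 on GRCm39 (137570 of 139225), and expected counts, rounded, and TPM were summed per gene.

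The 4 WT and 3 KO libraries were compared with edgeR 4.0.16 (TMM, filterByExpr, glmQLFit with legacy=TRUE, two-sided, Benjamini–Hochberg adjustment over 19233 genes). Whether the pools were separate in all steps is not stated beyond their labels, so p-values measure the spread between these pools. With a common biological coefficient of variation of 0.127, counting error was small except for *Figla*. Alternatives were DESeq2 1.42.0 (the tool of the study), median-of-ratios factors, no filter or at least 10 reads, length offsets, a replicate block and leaving out each library. The code was tested on simulated data. A pseudocount of 0.1 was added to TPM on the log2 scale.

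The 10 genes and all lists were chosen with earlier results of these data known. Beyond the 10, the rule named every gene called, the 3 lowest p, the highest and lowest TPM of each role and the 10 genes most alike. *Amh*, *Inha*, *Has2*, the other cumulus matrix genes, the theca genes, *Ddx4*, *Dppa3* and *Oosp2* were named after their values were seen.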

Additional observations from a re-analysis of the deposited data

How the results depend on the processing

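The log2 fold changes of the 10 genes stayed above 0 and uncalled in all 14 alternatives to the edgeR fit, with adjusted p from 0.116 (*Nlrp5*, DESeq2) to 0.987. Counts of genes moved more. The 2 genes called became 144 with DESeq2, 36 without a filter on low counts, 6 with at least 10 reads in every library and 1 to 4 when a replicate was left out. The 5 of the 10 genes with an unadjusted p under 0.05 became 1 (without KO replicate 3) to 9 (without KO replicate 4). The 13 of the wider list became 28 without a filter and 2 to 36 when a replicate was left out. They were 2 without KO replicate 3 (6.62% of all genes) and 36 without KO replicate 4 (12.4%). Without WT replicates 3, 2 and 1 they were 27 (7.65%), 6 (8.41%) and 8 (8.82%). The share of all genes was 8.94% in the main fit and 6.86% without a filter. In the wider list DESeq2 called 1 gene where edgeR called 0. The number of its genes above 0 was 43 to 48. The KO to WT ratio of the summed TPM was 1.12 to 1.34 when a replicate was left out. The cause of these shifts was not tested.

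The deviations of same-numbered libraries had correlations of −0.013, 0.106 and 0.085 for KO replicates 2, 3 and 4. KO replicates 3 and 4 correlated best with their own number and KO replicate 2 with another. These values do not decide whether the libraries were paired by number. With the replicate number as a block over 6 libraries, edgeR called 26 genes, and 6 of the 10 genes and 22 of the wider list had an unadjusted p under 0.05, as did 11.6% of all genes. The same 6 libraries without the block, a setting added after the data were seen, gave 2 called genes. Such a p was then found for 2 of the 10 and 8 of the wider list, beside 8.82% of all genes. No gene failed the filter, so the planned permutation test for such a gene had no case. Depth limits the level of *Figla* and of the wider list's lowest genes.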
